A study of Homo sapiens with 17 samples.

Results

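Cells of the Jurkat line, grown from a human T cell leukaemia, were exposed to ILT3.Fc. This soluble fusion carries the outer domains of ILT3, an inhibitory receptor encoded by LILRB4, on the Fc portion of an antibody. The results here concern the lower of the 2 doses tested, 12.5 µg/ml, set against untreated cells (0 µg/ml) with time taken into account. By the labelled dose, 11 of the 17 RNA-seq libraries belonged to this comparison: 6 at 12.5 µg/ml (2 each at 6, 12 and 24 h) and 5 at 0 µg/ml (2 at 6 h, 1 at 12 h and 2 at 24 h). The other 6 libraries were from cells at 25 µg/ml and enter only where the doses are set side by side. All groups were the same line in the same supplemented RPMI-1640 medium, and the labels separate them by dose and time. The series' title puts its question as which regulator lies at the head of the changes that ILT3.Fc brings about. The labels call the samples duplicates without saying whether these were separate cultures. The p-values therefore measure only the spread between these libraries, which may be technical.

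ILT3 is normally carried by antigen-presenting cells, where it restrains T cell responses. CD166 (gene ALCAM) has been described as a partner of ILT3.Fc on leukaemic T cells. Dividing T cells need both new membrane, built in part from cholesterol made through the mevalonate pathway, and a timed programme of mitotic genes. Splicing of messages by the spliceosome, whose U2 particle holds the SF3A and SF3B complexes, is shared by all of these.

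The libraries carried the markers of their label. All 12 T cell and Jurkat markers had a mean of at least 1 FPKM (fragments mapped, scaled to gene length and to the library's total), with summed levels of 1830 to 2040 FPKM at 12.5 µg/ml and 1790 to 1900 FPKM at 0 µg/ml. None of 8 myeloid, 4 erythroid, 5 epithelial or 4 fibroblast markers had a mean of 1 FPKM. Of 6 B cell markers 2 did, with sums of 42.2 to 55.5 FPKM at 12.5 µg/ml and 40.3 to 47.9 FPKM at 0 µg/ml, while MS4A1, CD79B and PAX5 stayed below 1 in every library. Of 6 NK markers 2 reached 1 FPKM, with sums of 6.06 to 8.83 FPKM at 12.5 µg/ml and 5.12 to 8.99 FPKM at 0 µg/ml. LILRB4 was listed at 0 in all 17 libraries.

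A single library, replicate 1 of 12.5 µg/ml at 6 h, differed from the rest in how its values varied with gene length, and is referred to as the library that stood apart. Its deviations from the mean library had a Spearman correlation with transcript length of -0.58 across genes, a description in which genes are not independent, against -0.06 to 0.36 in the other 10 libraries. Its FPKM summed to 557389, against 507958 to 519649 in the others. In the comparison itself, the median log2 difference between 12.5 and 0 µg/ml was 0.024 in the shortest of 5 equal groups of genes by length and -0.023 in the longest. Without that library these medians were -0.005 and 0.013. At 6 h alone they were 0.054 and -0.078 with the library and -0.029 and 0.019 without it. The main counts are therefore given with all 11 libraries and without this one. Some differences and list medians are given with all 11 only.

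**Figure D1:**
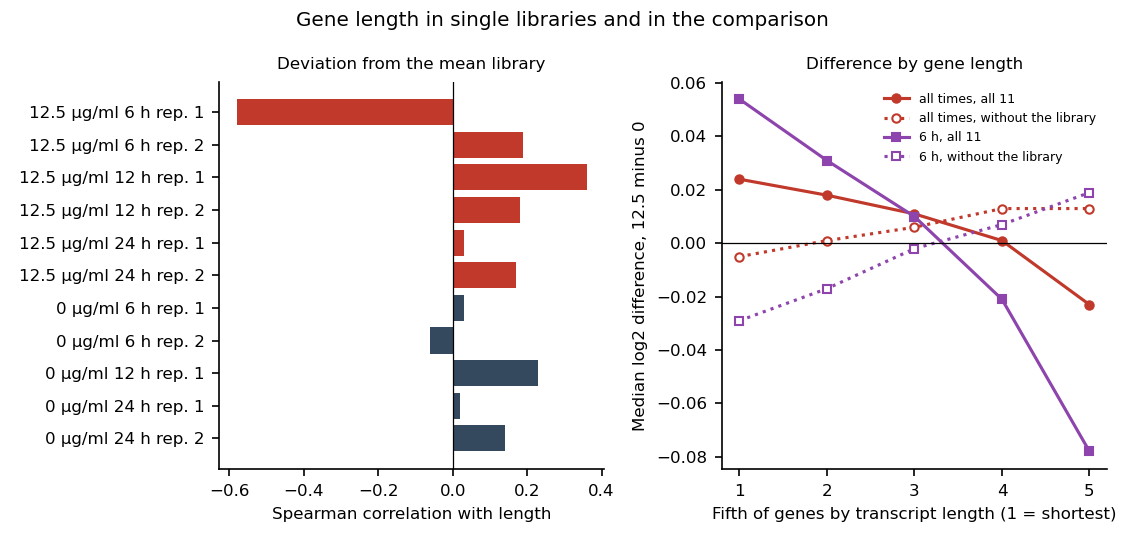
Left, the Spearman correlation across genes between transcript length and the deviations of a library from the mean of all, with 12.5 µg/ml in red and 0 µg/ml in dark blue. Right, the median log2 difference of 12.5 minus 0 µg/ml in 5 equal groups of genes by length, over all times (red) and at 6 h (purple), with all 11 libraries (filled, solid) and without replicate 1 of 12.5 µg/ml at 6 h (open, dotted). That library lies at -0.58, and the slope over length turns round when it is left out.

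With all 11 libraries, 9 of 12003 genes tested (0.075%) passed an adjusted p under 0.05 by limma: 4 were higher at 12.5 µg/ml (0.0333%) and 5 lower (0.0417%). The genes that rose were PRMT10, HSD17B7, C1orf216 and RABGGTB. SF3B3, LOC100506233, C20orf197, DHX15 and SAFB2 fell. Their differences were small, from 0.17 to 0.49 on the log2(FPKM + 1) scale, on which the change of low genes comes out too small. An unadjusted p under 0.05 was found for 1387 genes (11.6%), 811 of them higher (6.76%) and 576 lower (4.8%). The median difference over all genes tested was 0.005, and 53.3% of genes had a difference above 0.

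Without the library that stood apart, 45 genes were called (0.375%), 16 higher (0.133%) and 29 lower (0.242%). With each library centred on its median the split was 3 higher and 7 lower with all 11 libraries, and 9 higher and 34 lower without the one. The 45 included all 9 genes above, and the other 36 had the same sign with all 11 libraries. With lane as a covariate as well, an alternative chosen after seeing the data, 2 genes were called, SF3B3 (limma adjusted p = 0.00912) and PRMT10 (adjusted p = 0.0206), and all 36 added calls ended. The median standard error over all genes was 0.0365 without the library and 0.0445 with it. The number of genes with an unadjusted p under 0.05 was 1905 (15.9%), 1023 higher (8.52%) and 882 lower (7.35%). A difference above 0 was found in 54.4% of genes.

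Among the 9 genes called with all libraries, 7 had no overlap between the 6 treated and the 5 untreated libraries, the exceptions being C20orf197 and SAFB2. Of the 45, 19 had none. Over all genes tested, the 6 treated libraries lay above all 5 untreated ones for 87 genes (0.725%) and below them for 60 (0.5%). SF3B3, PRMT10 and LOC100506233 kept their calls when each library was left out in turn. HSD17B7 kept its call in 6 of the 11 cases and lost it without either 12.5 µg/ml library at 24 h, replicate 2 of 12.5 µg/ml at 12 h, replicate 2 of 0 µg/ml at 6 h or the 0 µg/ml library at 12 h. The other 5 genes were called in only 2 of the 11 cases, those without either 12.5 µg/ml library at 6 h.

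**Figure D2:**
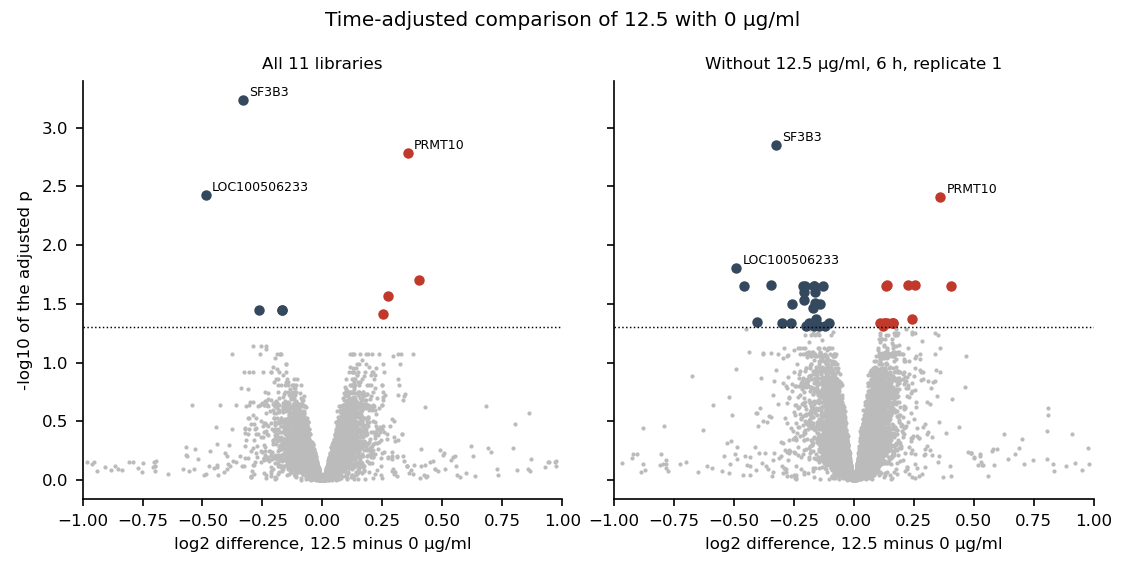
Each point is a gene, placed by its log2 difference of 12.5 minus 0 µg/ml, adjusted for time, and by -log10 of its adjusted p, with all 11 libraries (left) and without replicate 1 of 12.5 µg/ml at 6 h (right). Red genes were called higher, dark blue ones lower, and the dotted line marks an adjusted p of 0.05. There are 9 called genes on the left and 45 on the right, with SF3B3, PRMT10 and LOC100506233 uppermost in both, and 41 and 53 genes with differences of 1 or more in size, none called, lie outside the panels.

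Genes of RNA splicing were among those that fell. SF3B3 encodes a subunit of SF3B, the part of the U2 particle that recognises the branch site of introns. Its levels at 12.5 µg/ml were 46.4 and 48.2 FPKM at 6 h, 49.3 and 50.5 FPKM at 12 h, and 48.7 and 47.0 FPKM at 24 h. Untreated cells had 58.8 and 58.9 FPKM at 6 h, 62.0 FPKM at 12 h, and 62.2 and 61.6 FPKM at 24 h. Every treated library was thus below every untreated one. SF3B3 fell by 0.33 in log2 units, a fold of 0.796 (SE 0.0226, limma adjusted p = 0.000588), and by 0.325 without the library that stood apart (SE 0.0213, adjusted p = 0.00141).

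DHX15, an RNA helicase that takes spliceosomes apart, had 156 and 159 FPKM at 6 h, 159 and 164 FPKM at 12 h, and 151 and 158 FPKM at 24 h in treated cells. Untreated cells had 178 and 174.5 FPKM at 6 h, 180.1 FPKM at 12 h, and 176 and 177 FPKM at 24 h, so the groups did not overlap. It fell by 0.17 (SE 0.0222, limma adjusted p = 0.0355), and its adjusted p without the library was 0.0221. SAFB2, a nuclear protein that binds scaffold-attached DNA and RNA, ranged from 38.9 to 44.2 FPKM in treated cells and from 43.0 to 49.2 FPKM in untreated cells. Those ranges overlapped, since the 24 h levels of both doses were the lowest. At each time the treated libraries were below the untreated ones, and the time-adjusted fall was 0.17 (SE 0.0226, limma adjusted p = 0.0355).

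The fall of SF3B3 was not shared by the whole complex. Of 14 measured genes for SF3A, SF3B and associated U2 factors, 2 fell, SF3B3 itself and DHX15, none rose and 12 did not pass. This held with all 11 libraries and without the one that stood apart, against 0.0417% and 0.242% of all genes falling. The list was chosen with earlier results of these data known, so these counts are not an independent test. The list's median was 0.003, against 0.005 for all genes. Without the library that stood apart it was -0.016, against 0.006, and 10 of the 14 lay below 0, where 5 did with all 11. SF3B1, the largest SF3B subunit and the one most often mutated in blood cancers, had a difference of 0.005 with all 11 libraries (SE 0.0285). SF3B2 had one of 0.05 (SE 0.0292, limma adjusted p = 0.557). Neither was in the set of genes fixed for naming, and both were picked after their values were seen. U2AF2, which reads the polypyrimidine tract at the end of introns, stood at -0.07 (limma adjusted p = 0.295).

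PRMT10, now called PRMT9, belongs to the protein arginine methyltransferases, and SF3B2 is its best known substrate. It had 12.4 and 13.0 FPKM at 6 h, 13.0 and 12.3 FPKM at 12 h, and 11.8 and 12.4 FPKM at 24 h in treated cells. In untreated cells it had 9.36 and 9.57 FPKM at 6 h, 9.90 FPKM at 12 h, and 9.25 and 9.40 FPKM at 24 h. All treated libraries were above all untreated ones, and each dose stayed within a narrow range over the times. PRMT10 rose by 0.36 (SE 0.0292, limma adjusted p = 0.00166), a fold of 1.28, and by 0.36 without the library that stood apart (adjusted p = 0.00392). It was the only called member among 9 measured genes of the family, against 0.0333% of all genes rising. PRMT10 was fixed for naming and the list was chosen with earlier results of these data known, so this count is not an independent test. The family's median was 0.028, against 0.005 for all genes. PRMT2 (0.08, adjusted p = 0.295) and PRMT3 (0.07, adjusted p = 0.322), by the same limma test, came next.

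**Figure D3:**
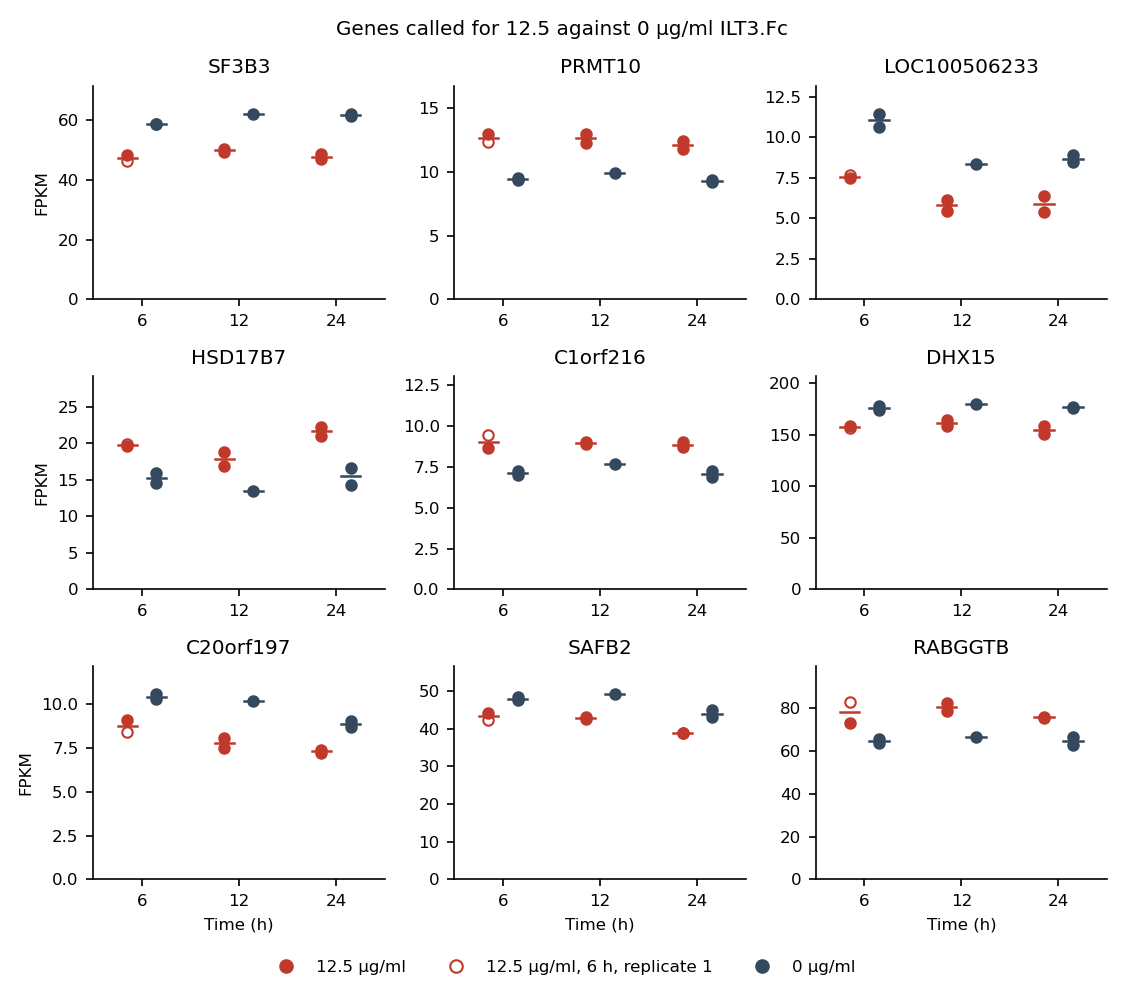
FPKM of the 9 genes called with all 11 libraries, by time, with 12.5 µg/ml in red at the left and 0 µg/ml in dark blue at the right of each time. Points are libraries, the open point is replicate 1 of 12.5 µg/ml at 6 h and lines are means of the libraries at that time. The doses are separated at each of the 3 times, for SF3B3 by 46.4 to 50.5 FPKM at 12.5 µg/ml against 58.8 to 62.2 FPKM at 0 µg/ml.

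Genes of cholesterol synthesis lay mostly above their untreated level. HSD17B7, which encodes a ketoreductase of the late, sterol-forming steps, had 19.97 and 19.6 FPKM at 6 h, 16.9 and 18.8 FPKM at 12 h, and 21.1 and 22.2 FPKM at 24 h in treated cells. Untreated cells had 15.9 and 14.6 FPKM at 6 h, 13.5 FPKM at 12 h, and 14.3 and 16.6 FPKM at 24 h. The lowest treated library, at 16.9 FPKM, was just above the highest untreated one, at 16.6 FPKM. HSD17B7 rose by 0.40 (SE 0.0467, limma adjusted p = 0.0198), a fold of 1.32, and by 0.40 without the library that stood apart (adjusted p = 0.0224).

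HMGCS1 makes HMG-CoA at the head of the mevalonate pathway. It had 87.3 and 82.8 FPKM at 6 h, 58.5 and 58.5 FPKM at 12 h, and 96.2 and 96.8 FPKM at 24 h in treated cells. Untreated cells had 75.4 and 75.1 FPKM at 6 h, 48.4 FPKM at 12 h, and 65.2 and 69.2 FPKM at 24 h. Treated libraries were above untreated ones at each time, though both doses were lowest at 12 h and the groups overlapped across times. Its difference over all times was 0.33 (SE 0.0535, limma adjusted p = 0.0851, and 0.056 without the library that stood apart), so it did not pass. It did pass with correction for GC content and length (adjusted p = 0.0351, and 0.0368 without that library) and with array weights (adjusted p = 0.0345). FDFT1, squalene synthase, ranged from 182 to 244 FPKM in treated cells and from 165 to 208 FPKM in untreated cells. Its difference of 0.18 did not pass (SE 0.0318, limma adjusted p = 0.0851), but did with the correction for GC content and length (adjusted p = 0.0292). Neither HMGCS1 nor FDFT1 passed with a pseudocount of 0.1, median centring, lane as a covariate, the replicate block or the additive fit of all 17 libraries.

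Of the 23 measured genes of cholesterol synthesis, HSD17B7 rose, none fell and 22 did not pass, with all 11 libraries and without the one that stood apart. The differences of 21 lay above 0, against 53.3% of all genes, and 14 had an unadjusted p under 0.05 with a rise, against 6.76%. The list was chosen with earlier results of these data known, so these counts are not an independent test. The median was 0.104 with all 11 libraries and 0.097 without the one library, against 0.005 and 0.006 for all genes. LBR, a sterol reductase of the nuclear envelope, named after its value was seen, was below 0 at -0.06. The medians were 0.075 at 6 h, 0.054 at 12 h and 0.167 at 24 h. At 6 h the median was 0.02 without the library that stood apart. The list's median was 0.156 in sequencing lane 4 (24 h, and replicate 1 at 6 h) and 0.041 in lane 5 (12 h, and replicate 2 at 6 h), as the sample descriptions give the lanes. Lane cannot be told apart from the contrast of 12 h with 24 h.

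By the list's median, regulators of the pathway were closer to their untreated level, though not every member was. Among 11 measured genes for the control of SREBP, the transcription factor that drives sterol synthesis, and for cholesterol uptake, none was called. With all 11 libraries 9 lay above 0, against 53.3% of all genes, with a median of 0.039. Without the library that stood apart 10 did, against 54.4%, with a median of 0.067. INSIG1, which holds SREBP back in the endoplasmic reticulum, had a difference of 0.11 (SE 0.0333, limma adjusted p = 0.233). NPC2 had the largest of this list, 0.16 (SE 0.0532, adjusted p = 0.295 by the same test). Of 13 genes of fatty acid synthesis none was called, the median was 0.021, and FASN was among them with 28.2 to 34.9 FPKM in treated and 32.9 to 35.8 FPKM in untreated cells.

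The promoter of HSD17B7 is shown because this was the pathway's called member. It covers the 250 bases before the annotated start and 50 after it, from RefSeq on GRCh38.p14 at chr1:162790452-162790751, plus strand, and capitals mark the letters CCAAT or their reverse complement.
HSD17B7: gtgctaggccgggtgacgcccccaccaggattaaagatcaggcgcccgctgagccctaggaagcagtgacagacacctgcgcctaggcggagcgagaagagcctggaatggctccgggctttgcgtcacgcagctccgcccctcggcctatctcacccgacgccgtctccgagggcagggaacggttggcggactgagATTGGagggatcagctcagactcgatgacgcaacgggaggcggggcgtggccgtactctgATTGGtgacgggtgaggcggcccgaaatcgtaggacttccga
The CCAAT box is bound by NF-Y, a factor that often works with SREBP. Only genes listed with a single promoter were searched, which held for 13 of the 23 genes, HMGCS1 not among them. With both strands searched, 10 of the 13 held CCAAT, as did 34.6% of all 35116 promoters in the table. So did 2560 of the 6583 tested genes listed with a single promoter. The sterol element TCACNCCAC was found in none of the 13, in 69 of those 6583 genes and in 1.13% of all promoters. Such matches are letters in a window and say nothing about binding.

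Genes of mitosis lay mostly below their untreated level. HMMR, which encodes a spindle-associated receptor for hyaluronan, had 46.9 and 48.5 FPKM at 6 h, 49.3 and 50.0 FPKM at 12 h, and 43.8 and 44.9 FPKM at 24 h in treated cells. Untreated cells had 52.5 and 55.0 FPKM at 6 h, 57.3 FPKM at 12 h, and 56.7 and 59.5 FPKM at 24 h. The groups did not overlap, and the gap was widest at 24 h. HMMR stood at -0.26 (SE 0.0387, limma adjusted p = 0.0716) with all 11 libraries and fell by 0.26 without the one that stood apart (SE 0.0413, adjusted p = 0.0465). With correction for GC content and length it passed with all 11 libraries (adjusted p = 0.025).

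PLK1, the kinase that drives entry into and exit from mitosis, had 96.8 and 97.5 FPKM at 6 h, 98.9 and 97.3 FPKM at 12 h, and 86.1 and 84.5 FPKM at 24 h in treated cells. Untreated cells had 98.0 and 97.4 FPKM at 6 h, 107.6 FPKM at 12 h, and 108.3 and 105.4 FPKM at 24 h. The doses were level at 6 h and apart at 24 h. Its time-adjusted difference was -0.16 (SE 0.0472, limma adjusted p = 0.241) and did not pass. KIF20A, a kinesin of the central spindle, stood at -0.19 (adjusted p = 0.139), and TOP2A, the topoisomerase that untangles sister chromatids, at -0.19 (adjusted p = 0.139), by the same test.

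Of the 36 measured genes of the mitosis list, none was called with all 11 libraries. Without the library that stood apart 4 fell, HMMR, UBE2C, AURKA and CCNB2, none rose and 32 did not pass, against 0.242% of all genes falling. All 4 calls ended when lane was added as a covariate to that fit (limma adjusted p = 0.0701 to 0.0763). UBE2C, CCNB2 and AURKA were named after their values were seen. With all 11 libraries 35 lay below 0, the exception being the transcription factor FOXM1 (0.02), named after its value was seen, and 25 had an unadjusted p under 0.05 with a fall, against 4.8% of all genes. The median was -0.106 with all 11 libraries and -0.124 without the one, against 0.005 and 0.006 for all genes. It was -0.047 at 6 h, -0.065 at 12 h and -0.18 at 24 h. Within lanes it was -0.13 in lane 4 and -0.068 in lane 5. This list, too, was chosen with earlier results of these data known, so its counts are not an independent test.

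UBE2C, the E2 enzyme with which the anaphase-promoting complex marks cyclins, was among these 4. In treated cells it had 140.8 FPKM in that library and 114 to 121 FPKM in the other 5, and in untreated cells 125 to 133 FPKM. Its longest annotated transcript had 914 bases. The difference was -0.11 with all 11 libraries (limma adjusted p = 0.454) and it fell by 0.16 without the one (adjusted p = 0.0312). CCNB2, a B-type cyclin, had 126.5 FPKM in that library, 106 to 112.5 FPKM in the other treated ones and 116 to 131 FPKM in untreated cells. It stood at -0.16 with all 11 libraries (adjusted p = 0.221) and fell by 0.20 without the one (adjusted p = 0.0485). AURKA, the centrosomal mitotic kinase, stood at -0.10 (adjusted p = 0.368) and fell by 0.14 (adjusted p = 0.0316), by the same test.

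The promoters of 3 of these genes are shown because the list's members lay on the same side of 0. Each covers 250 bases before and 50 after the annotated start on GRCh38.p14 from RefSeq, plus strand: chr5:163460382-163460681 for HMMR, chr15:59104896-59105195 for CCNB2 and chr16:23678639-23678938 for PLK1. Capitals mark the CHR (cell cycle genes homology region), searched as TTTGAA on both strands, an element known from G2 and mitosis genes.
HMMR: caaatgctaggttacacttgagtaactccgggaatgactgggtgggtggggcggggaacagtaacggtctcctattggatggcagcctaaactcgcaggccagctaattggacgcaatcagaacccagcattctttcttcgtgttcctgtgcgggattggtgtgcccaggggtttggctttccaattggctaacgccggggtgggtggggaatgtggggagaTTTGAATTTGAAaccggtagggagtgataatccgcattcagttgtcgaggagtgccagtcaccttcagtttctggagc
CCNB2: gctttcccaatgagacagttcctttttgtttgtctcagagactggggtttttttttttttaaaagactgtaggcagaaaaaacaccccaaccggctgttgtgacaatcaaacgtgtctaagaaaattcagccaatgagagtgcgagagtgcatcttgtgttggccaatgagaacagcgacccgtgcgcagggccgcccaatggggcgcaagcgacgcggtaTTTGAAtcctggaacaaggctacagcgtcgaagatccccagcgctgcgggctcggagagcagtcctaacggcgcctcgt
PLK1: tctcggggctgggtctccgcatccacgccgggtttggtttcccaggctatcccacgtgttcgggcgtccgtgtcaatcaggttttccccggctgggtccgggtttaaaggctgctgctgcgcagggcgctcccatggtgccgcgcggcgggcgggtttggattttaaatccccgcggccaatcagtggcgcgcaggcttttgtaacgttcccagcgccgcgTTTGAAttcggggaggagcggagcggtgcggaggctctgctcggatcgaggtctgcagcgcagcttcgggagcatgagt
HMMR held 2 matches side by side, and CCNB2 and PLK1 held 1 each. Of the 36 genes, 24 were listed with a single promoter, and 17 of them held the CHR. So did 15.2% of all promoters in the table and 620 of the 6583 tested genes listed with a single promoter. CCAAT was found in 20 of the 24. These elements are known features of mitotic genes and were counted here only as letters.

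Of 34 measured genes of DNA replication, none was called. With all 11 libraries 22 lay below 0, and 7 had an unadjusted p under 0.05 with a fall, against 4.8% of all genes. Without the library that stood apart 27 lay below 0 and 12 had such a p, against 7.35% of all genes. The median was -0.029 (-0.032 without the library), against 0.005 (0.006) for all genes. MCM5, a subunit of the replicative helicase, ranged from 109.5 to 131.5 FPKM in treated cells and from 117 to 134 FPKM in untreated cells. Of 10 G1 cyclins, their kinases and inhibitors, none was called, and the median was 0.006.

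**Figure D4:**
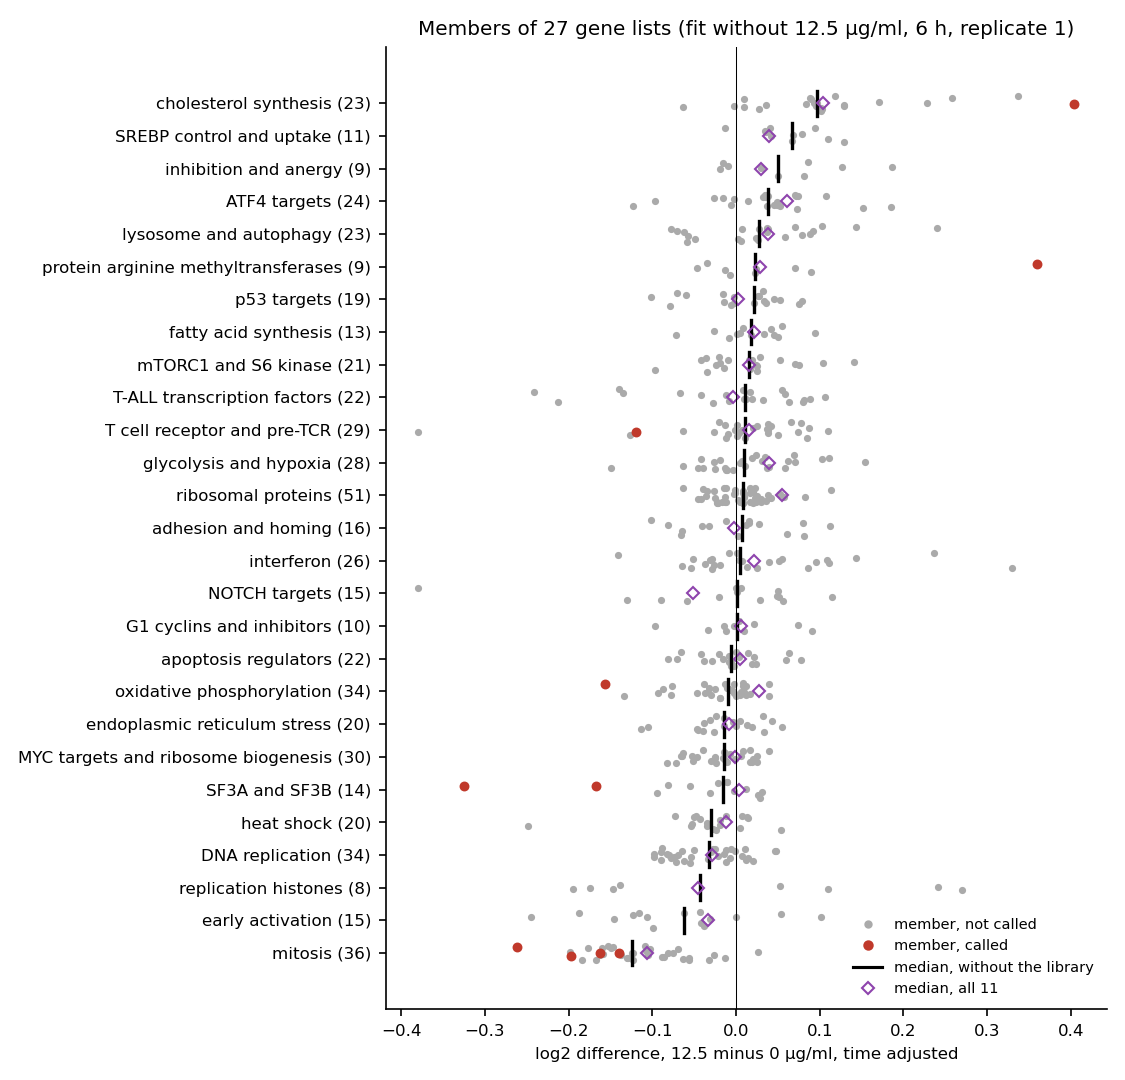
Log2 differences of 12.5 minus 0 µg/ml, time adjusted, for the members of 27 gene lists in the fit without replicate 1 of 12.5 µg/ml at 6 h. Points are genes (called ones in red), black bars are list medians in that fit, purple diamonds are medians with all 11 libraries, and the number of genes measured follows each name. Cholesterol synthesis has the highest median (0.097) and mitosis the lowest (-0.124), and the diamonds of ribosomal proteins, oxidative phosphorylation and NOTCH targets lie away from their bars.

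The other called genes have fewer known ties to these pathways. LOC100506233, listed by RefSeq as RAB30-DT, a divergent transcript next to RAB30, had 7.66 and 7.48 FPKM at 6 h, 5.49 and 6.13 FPKM at 12 h, and 6.38 and 5.38 FPKM at 24 h in treated cells. Untreated cells had 11.5 and 10.6 FPKM at 6 h, 8.39 FPKM at 12 h, and 8.48 and 8.91 FPKM at 24 h. The groups did not overlap, and both doses were highest at 6 h. It fell by 0.49 (SE 0.0457, limma adjusted p = 0.00374), the largest difference among the 9 genes, and by 0.49 without the library (adjusted p = 0.0158). Reads from neighbouring and antisense genes cannot be told apart here, because whether counting used strand is not given in the sources used here.

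RABGGTB, the beta subunit of the enzyme that attaches geranylgeranyl groups from the mevalonate pathway to Rab GTPases, ranged from 72.9 to 83.0 FPKM in treated cells and from 62.6 to 66.5 FPKM in untreated cells. It rose by 0.25 (SE 0.0348, limma adjusted p = 0.0382), with no overlap. C1orf216 had 8.65 to 9.43 FPKM in treated and 6.86 to 7.66 FPKM in untreated cells, and rose by 0.27 (SE 0.0339, adjusted p = 0.0272). C20orf197 had 7.24 to 9.13 FPKM in treated and 8.72 to 10.6 FPKM in untreated cells, and fell by 0.27 (SE 0.0352, adjusted p = 0.0355). The highest treated value of C20orf197 was at 6 h and the lowest untreated one at 24 h, so the overlap was between times.

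A further 36 genes passed only without the library that stood apart, 12 higher and 24 lower. Among those higher, DHX9, an RNA helicase, had 188 to 206 FPKM in treated and 176 to 184 FPKM in untreated cells, and rose by 0.14 (SE 0.0151, limma adjusted p = 0.0217, and 0.0851 with all 11). C14orf159, now DGLUCY, a mitochondrial D-glutamate cyclase, rose by 0.24 (adjusted p = 0.0423). PXK, a PX-domain protein of endosomal traffic, SLC33A1, the acetyl-CoA carrier of the endoplasmic reticulum, USP4, a deubiquitinase, and SLIT1, a secreted guidance cue, rose by 0.14 to 0.17 (adjusted p = 0.0456 each). SLIT1 had 25.3 FPKM in the library left out, 31.0 to 34.8 FPKM in the other treated ones and 28.6 to 31.4 FPKM in untreated cells, and its difference with all 11 was 0.08 (adjusted p = 0.616). The remaining 6, named here after their values were seen, were EVL, IL2RG, RCSD1, CNIH4, CIZ1 and TCOF1. IL2RG, the cytokine receptor chain shared by IL-2 and IL-7 receptors, had 200.3 to 228 FPKM in treated and 184 to 207 FPKM in untreated cells, and rose by 0.12 (adjusted p = 0.0456).

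Among the 24 lower genes, HSD17B8, an enzyme of mitochondrial fatty acid synthesis, had 9.93 FPKM in the library left out, 6.32 to 8.06 FPKM in the other treated ones and 8.62 to 10.9 FPKM in untreated cells. It fell by 0.34 without the library (SE 0.0394, limma adjusted p = 0.0217) and stood at -0.29 with all 11 (adjusted p = 0.12). LOC100507002 fell by 0.46 (adjusted p = 0.0224) at 1.37 to 2.86 FPKM in treated and 2.01 to 2.95 FPKM in untreated cells, and its highest treated value was in the library left out. LOC100506083, the divergent transcript DDX19A-DT, fell by 0.41 (adjusted p = 0.0453) and HYAL3, of the hyaluronidase family, by 0.30 (adjusted p = 0.0456). RRP36, which takes part in the maturation of ribosomal RNA, fell by 0.21 (adjusted p = 0.0224). LOC100132741 (-0.21, adjusted p = 0.025) had almost the same values as FLJ46446 in every library, so these 2 entries cannot be told apart; FLJ46446 was named after its values were seen.

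Besides the 4 mitotic genes above and FLJ46446, the others were RAD51C, GNL2, CENPM, HNRNPH3, NDUFS1, HAUS4, OIP5, SHMT1, DOM3Z, ATIC, ATF2, SLC20A1 and RAG1. NDUFS1 and RAG1 were named by rule as members of their lists, and the rest after their values were seen. HNRNPH3, a splicing regulator of the hnRNP family, had 134 to 164 FPKM in treated and 154 to 173 FPKM in untreated cells, and fell by 0.17 (limma adjusted p = 0.0342). CENPM, OIP5 and HAUS4 act at the centromere and spindle but were not on the mitosis list. NDUFS1, a subunit of respiratory complex I, had 38.7 to 43.2 FPKM in treated and 45.6 to 47.9 FPKM in untreated cells, with no overlap, and fell by 0.16 (adjusted p = 0.0423). RAG1, a subunit of the V(D)J recombinase, had 51.7 FPKM in the library left out, 66.5 to 86.0 FPKM in the other treated ones and 70.0 to 92.7 FPKM in untreated cells. It fell by 0.12 (adjusted p = 0.0491), and its levels were highest at 24 h at both doses.

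On the list of T cell receptor genes only RAG1 passed, and IL2RG was not on that list. Of 29 measured genes of the T cell receptor and pre-T cell receptor, none was called with all 11 libraries and RAG1 fell without the one, with a median of 0.016 (0.011 without it). PTCRA, the pre-T alpha chain, had 9.28 and 7.38 FPKM at 6 h, 6.94 and 6.22 FPKM at 12 h, and 8.92 and 9.21 FPKM at 24 h in treated cells. Untreated cells had 7.49 and 8.14 FPKM at 6 h, 9.33 FPKM at 12 h, and 14.2 and 13.0 FPKM at 24 h. The doses overlapped at 6 h and were apart at 24 h, and the difference over all times, -0.29, did not pass (SE 0.105, limma adjusted p = 0.332). A change of this difference with time was not shown, as the interaction of dose and time did not call PTCRA. ALCAM had 4.85 to 5.02 FPKM in treated and 4.32 to 5.39 FPKM in untreated cells, with a difference of 0.00 (SE 0.052, adjusted p = 0.991). CD6, the T cell receptor for ALCAM, stood at 0.07 (SE 0.0348, adjusted p = 0.472).

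None of 15 early activation genes was called, and 12 lay below 0 with a median of -0.034 (-0.062 without the library). None of 9 genes of inhibition and anergy was called either. DGKA, a diacylglycerol kinase that dampens receptor signals, stood at 0.12 (limma adjusted p = 0.177) and INPP5D, the inositol phosphatase SHIP1, at 0.16 (adjusted p = 0.235). Among 21 genes of mTORC1 and S6 kinase none was called. RPS6KB1, which encodes S6 kinase, had 19.9 to 22.1 FPKM in treated and 18.4 to 19.4 FPKM in untreated cells, without overlap, and its difference of 0.13 did not pass (SE 0.0266, adjusted p = 0.12).

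For some lists the median moved with the library that stood apart. Of 51 ribosomal protein genes 50 lay above 0 with all 11 libraries (median 0.055) and 31 without the one (median 0.008), and none was called either way. Of 34 genes of oxidative phosphorylation 25 lay above 0 with all 11 (median 0.027) and 11 without it (median -0.01), where NDUFS1 fell. Of 15 NOTCH targets 3 lay above 0 with all 11 (median -0.052) and 10 without it (median 0.001). The median transcript length was 2008 bases in the ribosomal protein list, 1836 in oxidative phosphorylation and 4240 among NOTCH targets, against 3540 over all genes tested. Within lanes the ribosomal protein median was 0.102 in lane 4, which held that library, and -0.006 in lane 5.

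No member was called with all 11 libraries or without the one in the lists of heat shock (20 measured, median -0.012), endoplasmic reticulum stress (20, -0.008), ATF4 targets (24, 0.061) and MYC targets and ribosome biogenesis (30, -0.001). The same held for interferon (26, 0.022), glycolysis and hypoxia (28, 0.039), lysosome and autophagy (23, 0.038), p53 targets (19, 0.002) and apoptosis regulators (22, 0.005). It also held for transcription factors of T cell leukaemia (22, -0.004), adhesion and homing (16, -0.002) and replication histones (8, -0.045), medians being those with all 11 libraries. Some of these medians moved without the library that stood apart, that of glycolysis and hypoxia to 0.009 and that of ATF4 targets to 0.038. In the heat shock list CHORDC1, a co-chaperone of HSP90, stood lowest at -0.26 (SE 0.046, limma adjusted p = 0.0851), with 50.8 to 64.5 FPKM in treated and 59.9 to 72.2 FPKM in untreated cells. The interferon-induced gene IFI44 stood at 0.34 (SE 0.0849, adjusted p = 0.184), with 2.03 to 2.98 FPKM in treated and 1.42 to 1.93 FPKM in untreated cells, without overlap. SHMT2, a mitochondrial enzyme of serine use and an ATF4 target, stood at 0.12 (adjusted p = 0.156).

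At single times fewer genes passed, with 1 or 2 libraries in each arm. At 24 h only HMGCS1 was called among 12003 genes (0.00833%), and 1001 (8.34%) had an unadjusted p under 0.05. It averaged 96.5 ± 0.412 FPKM in treated and 67.2 ± 2.82 FPKM in untreated cells at 24 h (SD, n = 2 each), and rose by 0.52 (SE 0.0435, limma adjusted p = 0.0302). That call ended with median centring, which left 0 calls, and without either 12.5 µg/ml library at 12 h, which left 0 genes higher and 1 lower. Without the 6 h library that stood apart, whose removal changes the estimate of the spread shared by all times, 6 genes were called at 24 h (0.05%). HMGCS1, FDFT1 (0.25, adjusted p = 0.0475) and RBM3 (0.26, adjusted p = 0.0475) rose. PLK1 (-0.32, adjusted p = 0.033), SF3B3 (-0.37, adjusted p = 0.033) and HMMR (-0.38, adjusted p = 0.0475) fell. RBM3, a cold-inducible RNA-binding protein, was named after its values were seen.

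At 12 h, where the single untreated library was assumed to vary like the other groups, limma called 0 genes (0.0%), with 393 (3.27%) at an unadjusted p under 0.05. Without the library that stood apart it called 2 (0.0167%), LOC100507669, which rose by 0.94 (adjusted p = 0.00691), and the small nucleolar RNA SNORA16B. At 6 h, 2 genes were called (0.0167%) and 664 (5.53%) had an unadjusted p under 0.05. Both were small nucleolar RNAs, SNORA16B and SNORA66, that were listed at 0 in at least 1 library, and libraries of polyadenylated RNA measure such RNAs poorly, so no fold is given. Without the library that stood apart there were 5 calls at 6 h (0.0417%), all small RNAs listed at 0 in at least 1 library. These genes, LOC100507669 included, were named after their values were seen.

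Whether the effect of the dose differed between the times was tested by the interaction of dose and time. It called 1 gene (0.00833%), SNORA16B, with 367 (3.06%) at an unadjusted p under 0.05. The adjusted interaction p was 0.781 for HMGCS1 and PLK1 and 0.999 for SF3B3, PRMT10, HSD17B7 and HMMR. The size of the differences at 24 h, 0.52 for HMGCS1 against 0.17 at 6 h and -0.32 for PLK1 against -0.01 at 6 h, was therefore not shown to differ from that at 6 h. SF3B3 stood at -0.31, -0.31 and -0.37 at 6, 12 and 24 h, and PRMT10 at 0.38, 0.33 and 0.35.

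Within single lanes none of the 9 genes was called, and all kept their sign. Lane 4 alone gave 1 call and lane 5 alone 2. SF3B3 stood at -0.35 in lane 4 (limma adjusted p = 0.215) and at -0.30 in lane 5 (adjusted p = 0.517). The values of PRMT10 were 0.35 and 0.36 in lanes 4 and 5, those of HSD17B7 0.41 and 0.39, and those of LOC100506233 -0.51 and -0.46. HMGCS1 stood at 0.41 in lane 4 and 0.21 in lane 5, and HMMR at -0.31 and -0.19. With lane as a covariate over all 11 libraries 10 genes were called, among them all 9.

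Both doses were then set side by side in a single fit of all 17 libraries, in which they share the untreated libraries. That fit called 16 of 12015 genes for 12.5 against 0 µg/ml (0.133%) and 1036 for 25 against 0 µg/ml (8.62%), 575 higher (4.79%) and 461 lower (3.84%). Of the 9 genes called with 11 libraries, 6 were called for 12.5 µg/ml in it, and LOC100506233 (limma adjusted p = 0.101), DHX15 (adjusted p = 0.101) and SAFB2 (adjusted p = 0.117) were not. SF3B3 stood at -0.33 for 12.5 µg/ml and -0.51 for 25 µg/ml, and PRMT10 at 0.35 and 0.51. HSD17B7 was at 0.40 for 12.5 µg/ml and 0.55 for 25 µg/ml, and HMGCS1 at 0.32 and 0.66. HMMR was at -0.26 for 12.5 µg/ml and -0.53 for 25 µg/ml, and PLK1 at -0.16 and -0.45. RABGGTB was at 0.25 for 12.5 µg/ml and 0.28 for 25 µg/ml, and LOC100506233 at -0.50 and -0.61. The median of cholesterol synthesis was 0.11 for 12.5 µg/ml and 0.227 for 25 µg/ml, and that of mitosis -0.107 and -0.224. In the cholesterol list 1 of 23 genes was called for 12.5 µg/ml and 14 for 25 µg/ml (13 higher and 1 lower), and in the mitosis list none of 36 for 12.5 µg/ml and 26 for 25 µg/ml, all lower.

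**Figure D5:**
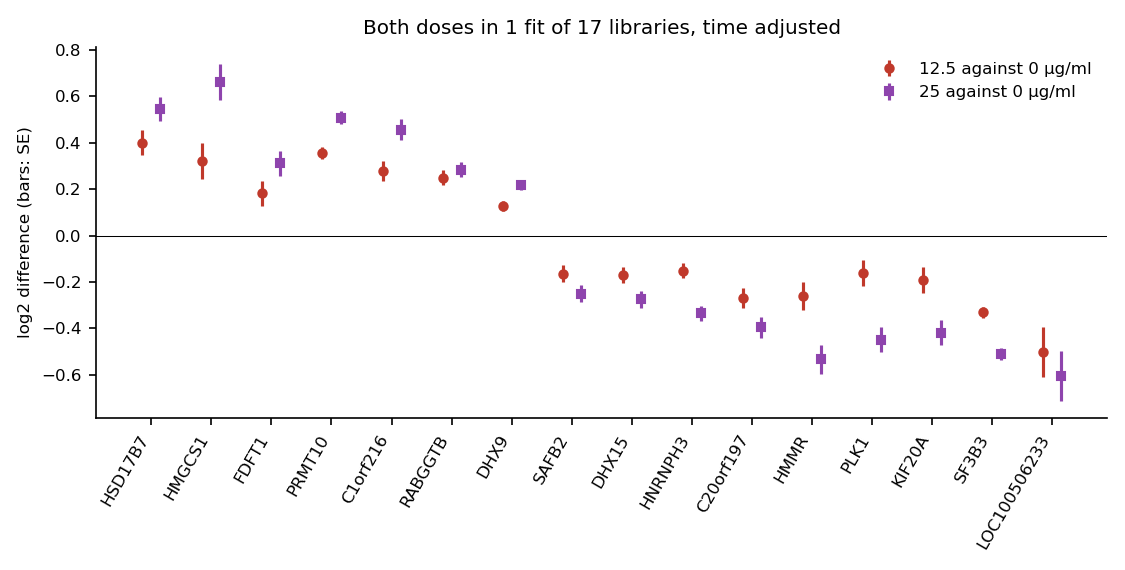
Log2 differences from 0 µg/ml, time adjusted, for 12.5 µg/ml (red circles) and 25 µg/ml (purple squares) in 1 fit of 17 libraries, with bars of 1 SE on each side. The untreated libraries are shared, so the pairs are not independent. SF3B3 lies at -0.33 and -0.51, HMGCS1 at 0.32 and 0.66, and RABGGTB at 0.25 and 0.28.

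The direct contrast of 25 with 12.5 µg/ml called 7 genes (0.0583%), 1 higher and 6 lower at 25 µg/ml. It called 0 genes without either 12.5 µg/ml library at 24 h, or without replicate 2 of 12.5 µg/ml at 6 h or at 12 h. No gene was called higher in 9 of the 11 cases with a library of 12.5 or 0 µg/ml left out, or with median centring. SF3B3 was at 40.5 to 44.4 FPKM at 25 µg/ml and at 46.4 to 50.5 FPKM at 12.5 µg/ml, and fell by 0.18 (SE 0.0239, limma adjusted p = 0.0225). PRMT10 was at 13.3 to 14.6 FPKM at 25 µg/ml and at 11.8 to 13.0 FPKM at 12.5 µg/ml, and rose by 0.15 (SE 0.0253, adjusted p = 0.0419). HNRNPH3 fell by 0.18 (adjusted p = 0.0461). FAM83D, C9orf100, CDC20 and HJURP also fell, and these 4 and HNRNPH3 were named after their values were seen. For HSD17B7 (0.15, adjusted p = 0.37), HMGCS1 (0.34, adjusted p = 0.183), HMMR (-0.27, adjusted p = 0.183) and LOC100506233 (-0.10, adjusted p = 0.734) the contrast did not pass. RABGGTB stood at 0.03 (adjusted p = 0.706).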

How the data were processed

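Polyadenylated RNA of Jurkat cells was prepared with a TruSeq kit, per the labels' protocols, and alignment software is listed as TopHat2 2.1.0, per the submitters' processing notes. The authors deposited 1 table of FPKM for all 17 libraries (25593 lines, 25548 symbols). The sources used here do not give the quantifier, genome build, annotation or use of strand. FPKM keeps no counts, so sequencing depth is unknown and the fold changes carry no counting interval. Columns of samples that could not be mapped numbered 0.

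Genes with a mean of at least 1 FPKM over the 11 libraries were tested on log2(FPKM + 1) with limma 3.58.1 in R 4.3.3 (two-sided, trended variance, time as a factor, 7 residual degrees of freedom), and p-values were adjusted by Benjamini-Hochberg over all genes tested, with calls at 0.05. Single times and the interaction used 1 mean per dose and time (5 residual degrees of freedom). The script was tested on simulated data. GC content and transcript length, from GENCODE v29, were matched for 11354 genes (94.6%). Promoters came from RefSeq (GRCh38.p14).

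Genes were named by rule: those called with and without replicate 1 of 12.5 µg/ml at 6 h with the same sign at all times, up to 3 members of each list by smallest p, those called at single times, and 8 fixed genes. All were above 0 in the 11 libraries except the fixed gene LILRB4, which was listed at 0. Any others are said to be named after their values were seen. Members and lists were chosen with earlier results of these data known. Same-numbered replicates were not treated as pairs in the main fits, and whether they pair was not settled. Alternatives covered the pseudocount, low-value filter, scaling, GC content and length, weights, lane, replicate block, times, the 17-library fits and leaving out each library.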

Additional observations from a re-analysis of the deposited data

Results flagged for a closer look

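The effect of 12.5 µg/ml differed between the times for SNORA16B by the interaction of dose and time (limma adjusted p = 0.0176). Its levels at 12.5 µg/ml were 41.5 and 14.9 FPKM at 6 h, and it was listed at 0 in all 4 libraries at 12 and 24 h. The 41.5 FPKM was in replicate 1, the library that stood apart. At 0 µg/ml it was listed at 0 in both libraries at 6 h and both at 24 h, and had 13.1 FPKM at 12 h. No fold is given against values listed at 0. SNORA16B is a small nucleolar RNA, and libraries of polyadenylated RNA measure such RNAs poorly; the part of this in the result was not tested. Single groups held 1 or 2 libraries at a time, too few to screen for outlying libraries within a group.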

How the results depend on the processing

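The 9 calls with all 11 libraries became 85 with correction for GC content and length, 5 with no filter on low values, 16 with quantile normalization and 88 with array weights. A single lane gave 1 call (lane 4) or 2 (lane 5). Leaving out all libraries of 6, 12 or 24 h gave 0, 1 and 0. Fits of all 17 libraries gave 34 with 1 mean per dose and time and 16 with additive terms. Under 3 alternatives chosen after seeing the data, all without replicate 1 of 12.5 µg/ml at 6 h, the count was 162 with the GC content and length correction, 43 with median centring and 2 with lane as a covariate. Leaving out each library gave 3 to 45 calls over all times, 0 to 2039 at 6 h, 1 to 7 at 12 h, 1 to 6 at 24 h, 4 to 305 for the interaction and 0 to 8 for 25 against 12.5 µg/ml. At 24 h the single call without either 12.5 µg/ml library at 12 h was of a lower gene, not HMGCS1. The 2039 and 305 came without replicate 2 of 12.5 µg/ml at 6 h, where the library that stood apart was alone in its group. Neither 12 h nor the interaction could be fitted without the untreated 12 h library. With a pseudocount of 0.1 there were 7 calls at 12 h and 3 for the interaction. At 24 h there were 0 calls with median centring and 24 with the GC content and length correction, which gave 16 for 25 against 12.5 µg/ml. The cause of these changes was not tested.

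Deviations of same-numbered libraries from their group means correlated across genes at -0.072 (6 h) and -0.07 (24 h), and the numbers were not taken to pair them. The 6 h value involved the library that stood apart. At 24 h, Spearman correlations of deviations from the mean library with GC content were 0.15 (12.5 µg/ml) and 0.04 (0 µg/ml) for replicate 1. For replicate 2 they were -0.26 and -0.39. Whether the numbers pair the libraries was thus not settled. With the replicate block, calls were 2 over all times (1 with the GC content and length correction too), 0 at 6 h, 2 at 24 h (0 higher, so HMGCS1 was not called) and 0 for 25 against 12.5 µg/ml. Over the named genes and all alternatives, 3447 values kept direction and side of the threshold, 210 newly passed, 128 no longer passed, 13 without a test moved and none changed sign after being called. FPKM give no depth, so what depth limits cannot be stated.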
